A study of Gossypium hirsutum with 24 samples.

Results

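Among the transcripts that rose in cotton leaves fed upon by cotton bollworm (CBW, Helicoverpa armigera) were 8 probe sets from families of defence proteins. Such proteins can act against the gut of an insect or the wall of a fungus, but no protein or activity was measured here. Of these probe sets, 6 were annotated as Kunitz-type protease inhibitors and 2 as chitinases. They were taken from the study's list of CBW-responsive transcripts by name: a probe set was a member where its protein name held Kunitz, trypsin or chitinase, and where it was not in the study's lists of stress-related, hormone, secondary metabolite or transcription factor genes. The array carried 23972 probe sets. The copy of the list used here held 1028 rows, each with a ratio at 48 h and sorted from the largest 48 h ratio downwards, so the members were selected on the 48 h arrays. Its last row had a 48 h log2 difference of 1.34. Probe sets lowered at 48 h, or without a 48 h ratio, could therefore not be members, and the 8 need not be all such genes of the array. The members' 48 h values are a description without a test, and tests were made at 6, 12 and 24 h, on arrays that the selection did not use.

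The study compared whole leaves of Gossypium hirsutum cv. CCRI12 on the Affymetrix Cotton GeneChip, with 3 control arrays and 3 CBW arrays at each of 6, 12, 24 and 48 h after feeding began, or 24 arrays in all. Control plants were undamaged and untreated, CBW plants carried third-instar larvae throughout, and all plants had 6-7 fully expanded true leaves at 5-6 weeks after sowing. Each array stood for the pooled leaves of 3 plants grown in 1 pot, which the labels call a biological replicate, and the sources give different numbers of larvae per pot, 36 in the methods and 7 in the sample labels. Intensities, on a linear scale, had medians of 358 to 399 per array. Values were given for 15615 probe sets at 1 time or more, and for 13341 at all times. The copied list named 1 leaf marker, and since it holds only probe sets raised at 48 h, this was a limited check of the leaf label. The chloroplast chlorophyll A-B binding protein (GraAffx.27643.2.A1_s_at), of the light-harvesting antenna, had mean intensities of 88.5 to 735 in control leaves and 484 to 635 in CBW leaves. It was higher in CBW leaves by 0.60 on the log2 scale at 6 h (adjusted p = 0.0254) and by 2.45 at 24 h (adjusted p = 1.11e-07), and the difference at 12 h was -0.19 (adjusted p = 0.524). Its control level was 3.03 lower on the log2 scale at 24 h than at 12 h (log2 difference -3.03, adjusted p = 7.76e-09). The paper reports lower levels for almost all photosynthesis genes that responded to feeding, so this probe set does not stand for them. Its part in the results below was not tested. No vicilin, legumin or oleosin, markers of seeds, was named in the list, which for the same reason is no check for seed tissue.

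Kunitz-type inhibitors are small proteins that bind the active site of serine proteases such as trypsin, and in plants they are known from seed reserves and from wounded leaves, where they can slow protein digestion in the gut of a chewing caterpillar. Chitinases cut chitin, a polymer of the fungal cell wall and of the lining of the insect gut, and many of them belong to the pathogenesis-related proteins. All 6 inhibitors carried the Kunitz domain in the study's annotation and both chitinases carried the catalytic domain of glycoside hydrolase family 19 with a type 1 chitin-binding domain. No other of the 1028 rows carried the Kunitz or the family 19 domain.

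The members mapped to 7 genes of the Gossypium raimondii annotation. The inhibitors GhiAffx.61299.1.S1_at (Kunitz family trypsin and protease inhibitor protein, putative; Gorai.012G027700.1) and Ghi.6529.1.S1_at (Kunitz family trypsin and protease inhibitor protein; Gorai.012G027600.1) mapped to genes with neighbouring numbers. The other 4 inhibitors, all named putative 21 kDa trypsin inhibitor, also had closely numbered genes: Ghi.4611.2.S1_at and GhiAffx.4536.1.S1_x_at both mapped to Gorai.011G254900.1, GhiAffx.4536.2.S1_at to Gorai.011G254500.1 and Ghi.4850.1.A1_x_at to Gorai.011G254800.1. The chitinases were Ghi.2559.1.S1_s_at (Carrot EP3-3 chitinase; Gorai.006G230300.1), named after a secreted chitinase of carrot cell cultures, and Ghi.6521.1.S1_at (class I chitinase; Gorai.002G203600.1). Upland cotton is a tetraploid with near-identical gene copies in its subgenomes, and probe sets ending in _s_at or _x_at can match several related transcripts, so a value may sum over copies and paralogues. The 4 probe sets for 21 kDa inhibitors are not taken as independent of each other. Ghi.4611.2.S1_at and GhiAffx.4536.1.S1_x_at share a gene, and whether the probe sets match each other's transcripts was not checked. Levels are compared below only within a probe set.

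At 6 h, 5 of the 7 members with values were higher in CBW leaves (limma, adjusted p of 0.05 or less). All 7 with values at 12 h were higher, as were all 8 at 24 h, and none was called lower. Over all probe sets tested, 26.1% were called higher at 6 h, 19.9% at 12 h and 20% at 24 h. Those probe sets, unlike the members, did not have to be raised at 48 h, and no share over the copied list was computed. How far the choice at 48 h bears on the members' counts and medians at the earlier times was not tested. The median log2 difference of the members, CBW minus control, was 1.27 at 6 h, 2.71 at 12 h and 3.04 at 24 h, against medians over all probe sets tested of -0.13, -0.04 and -0.08. All 3 CBW arrays lay above all 3 control arrays for 5 of 7 members at 6 h and for every member measured at 12, 24 and 48 h. Over all probe sets the share with such separation was 28% after 6 h of feeding, 23.5% after 12 h, 23.6% after 24 h and 31.1% after 48 h, and nothing is read from the 48 h count, which the selection fixed. Whole leaves were measured, so a change in the number of cells of a type and a change in RNA per cell cannot be told apart.

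**Figure D1:**
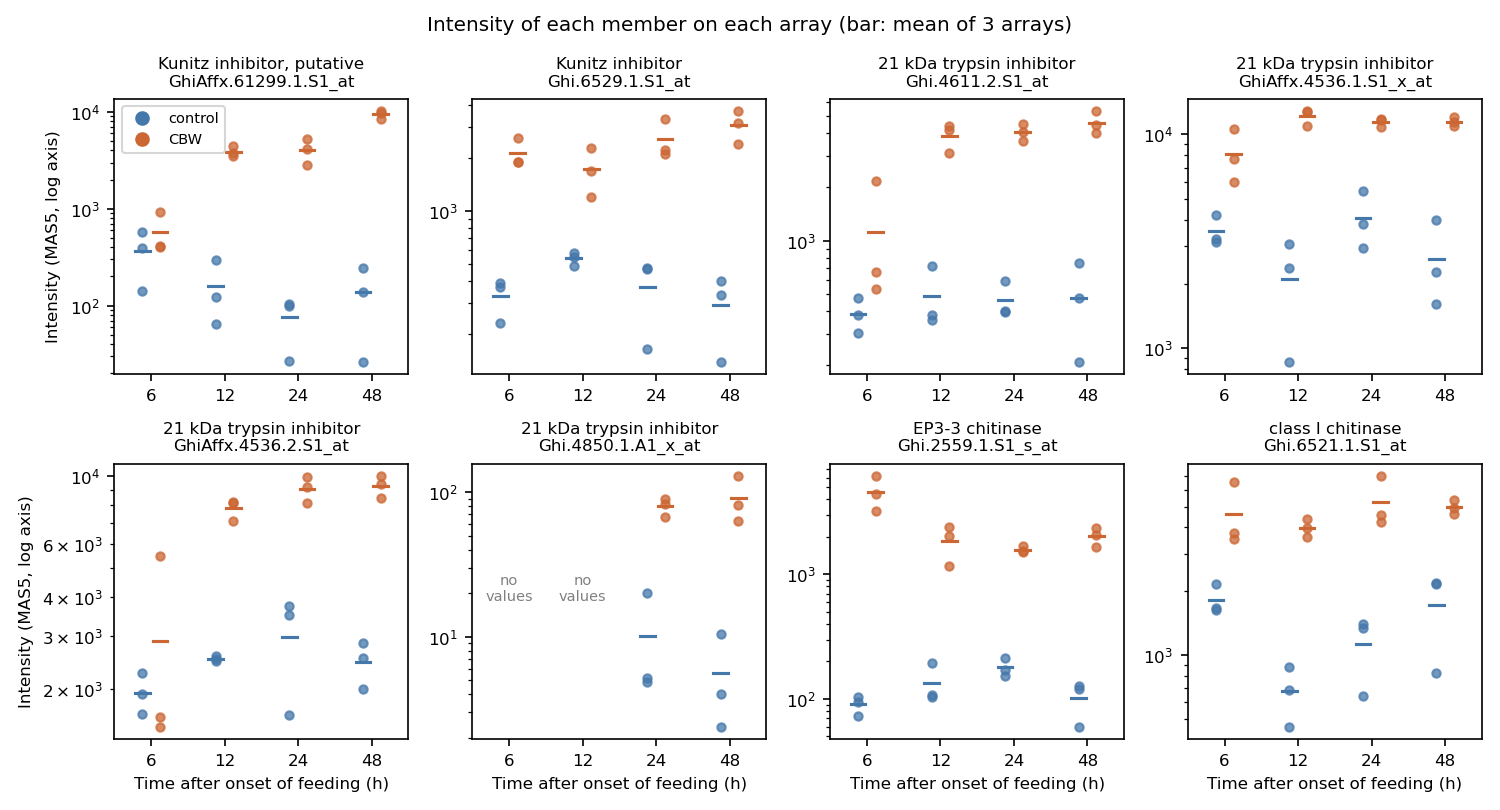
Intensity of each of the 8 members (log axis) on each of the 24 arrays against time after feeding began (h). Points are arrays, short bars are means of 3 arrays, blue is control and orange is CBW. The CBW and control arrays overlap only at 6 h, for GhiAffx.61299.1.S1_at and GhiAffx.4536.2.S1_at, and Ghi.4850.1.A1_x_at has no values at 6 and 12 h.

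The putative Kunitz inhibitor GhiAffx.61299.1.S1_at had the largest difference of the members at 12, 24 and 48 h, yet none that passed the test at 6 h. At 6 h its intensities were 140.79, 390.54 and 568.87 in control leaves and 408.79, 921.27 and 400.31 in CBW leaves, and the groups overlapped. At 12 h the control arrays read 292.52, 63.86 and 123.58 and the CBW arrays 3753.86, 3484.29 and 4404.94. Every CBW array at 12 h thus lay far above every control array. At 24 h the controls were at 103.21, 98.59 and 26.61 and the CBW leaves at 5241.25, 2825.41 and 4131.20. At 48 h the controls were at 247.14, 26.31 and 137.87 and the CBW leaves at 8382.48, 10106.18 and 9742.13. The CBW arrays were thus lowest at 6 h, overlapped between 12 and 24 h, and were highest at 48 h. The log2 difference was 0.76 at 6 h (standard error 0.714, 95% interval -0.74 to 2.25, adjusted p = 0.367), 4.87 at 12 h (adjusted p = 2.31e-05) and 5.93 at 24 h (adjusted p = 2.4e-06), or 29.2-fold and 60.9-fold at the later times. At 48 h it was 6.60, without a test. Without control 24 h replicate 3, which read 26.61, the 24 h difference was 5.29 (adjusted p = 2.77e-05). The 48 h difference was 5.67 without control 48 h replicate 2, which read 26.31, and 7.28 without control 48 h replicate 1. With a floor at the 20th percentile of each array, which lay above all 3 controls at 24 h and the lowest control at 48 h, the difference was 5.04 at 24 h and 5.87 at 48 h.

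Its control leaves also moved with time. Between 6 and 24 h the control level of GhiAffx.61299.1.S1_at fell by 2.28 on the log2 scale (standard error 0.714, adjusted p = 0.0283), in a comparison in which 22.1% of all probe sets were called in either direction. This call was lost without control 6 h replicate 2 (-2.13, adjusted p = 0.0891), without control 6 h replicate 3 (-1.86, adjusted p = 0.116) and without control 24 h replicate 3 (-1.64, adjusted p = 0.136). With the floor at the 20th percentile, which lay above all control arrays at 24 h, the change was -1.40 (adjusted p = 0.034). The size of the fall thus rests in part on dim intensities.

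Ghi.6529.1.S1_at, for the gene next in number to it, was higher in CBW leaves from 6 h on. The control arrays at 6 h read 229.94, 387.56 and 369.13 and the CBW arrays 1897.99, 2611.44 and 1902.69. At 12 h they read 548.43, 580.19 and 485.06 in control leaves and 2296.95, 1205.08 and 1694.91 in CBW leaves. The separation at 12 h was narrower than at 6 h, with higher control arrays and lower or similar CBW arrays. The intensities at 24 h were 471.72, 469.78 and 164.44 in control leaves and 3356.88, 2112.52 and 2224.54 in CBW leaves. At 48 h they were 398.54, 138.62 and 332.64 against 2423.58, 3695.84 and 3154.96. The CBW arrays overlapped between most pairs of times, so that their order by time is not clear. CBW minus control, on the log2 scale, this was 2.72 at 6 h (standard error 0.396, adjusted p = 1.13e-05), 1.64 at 12 h (adjusted p = 0.00242) and 2.92 at 24 h (adjusted p = 8.81e-06), and 3.53 at 48 h without a test.

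Among the 21 kDa trypsin inhibitors, Kunitz-type proteins with relatives among the storage proteins of cocoa seeds, the rise at 6 h was small or unclear and was clear at 12 h. Ghi.4611.2.S1_at had control intensities of 475.82, 381.43 and 302.14 at 6 h, against 2164.61, 666.00 and 533.93 in CBW leaves. CBW replicate 1 at 6 h thus stood well above replicates 2 and 3. At 12 h the control arrays read 384.15, 358.43 and 720.69 and the CBW arrays 3106.15, 4405.88 and 4155.20. At 24 h they read 594.41, 394.68 and 402.87 against 4062.00, 3605.85 and 4528.73, and at 48 h 743.97, 208.52 and 473.73 against 5318.44, 4010.74 and 4450.14. CBW levels of this probe set overlapped between 12, 24 and 48 h and lay above those at 6 h. The log2 difference was 1.27 at 6 h (standard error 0.445, adjusted p = 0.0187), 3.05 at 12 h (adjusted p = 2.16e-05) and 3.15 at 24 h (adjusted p = 1.35e-05), and 3.45 at 48 h. The 6 h call was lost without CBW 6 h replicate 1 (0.65, adjusted p = 0.158), without control 6 h replicate 3 (1.11, adjusted p = 0.0691) and with each time fitted alone (1.27, adjusted p = 0.0775).

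The same array stood apart for GhiAffx.4536.2.S1_at, another 21 kDa inhibitor. Its 6 h intensities were 1663.49, 2258.59 and 1926.07 in control leaves and 5480.29, 1623.80 and 1511.83 in CBW leaves, so that CBW replicate 1 was above all controls and replicates 2 and 3 were below them all. The log2 difference at 6 h was 0.30 (95% interval -0.44 to 1.04, adjusted p = 0.474), and without CBW 6 h replicate 1 it was -0.30 (adjusted p = 0.297). At 12 h the controls read 2520.89, 2467.94 and 2568.57 and the CBW leaves 7120.24, 8201.00 and 8131.54. At 24 h they read 3748.45, 3501.08 and 1653.89 against 8163.94, 9209.82 and 9865.70, and at 48 h 2530.17, 2001.14 and 2836.11 against 9957.97, 8446.87 and 9423.32. From 12 h on the CBW arrays were above all control arrays of any time. On the log2 scale the difference was 1.63 at 12 h (standard error 0.352, adjusted p = 0.000988), 1.70 at 24 h (adjusted p = 0.0006) and 1.93 at 48 h without a test.

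GhiAffx.4536.1.S1_x_at, which shares its gene with Ghi.4611.2.S1_at, differed by a log2 value of 1.17 at 6 h (standard error 0.366, adjusted p = 0.00961). Control leaves at 6 h read 4197.09, 3245.18 and 3135.08 and CBW leaves 10567.24, 7683.54 and 6017.88. At 12 h the intensities were 2362.98, 864.61 and 3070.74 against 10911.76, 12814.97 and 12681.12. Control replicate 2 at 12 h was the lowest of all control arrays for this probe set. At 24 h the intensities were 5463.68, 3824.24 and 2934.56 against 11660.54, 10787.95 and 11760.46, and at 48 h 3999.93, 1603.07 and 2263.76 against 12003.65, 10952.56 and 11438.13. CBW arrays from 12 h on lay in a narrow band between 10787.95 and 12814.97, while control arrays ranged from 864.61 to 5463.68. The log2 difference was 2.71 at 12 h (adjusted p = 9.75e-06), 1.53 at 24 h (adjusted p = 0.00197) and 2.23 at 48 h without a test. The control level was 0.92 lower on the log2 scale at 12 h than at 6 h (log2 difference -0.92, adjusted p = 0.0492), a call lost in 18 of 31 alternatives (-0.38, adjusted p = 0.353 without control 12 h replicate 2), and 1.10 higher at 24 h than at 12 h (adjusted p = 0.0237). The second call was lost without control 12 h replicate 2 (0.55, adjusted p = 0.176) and without control 24 h replicate 1 (0.86, adjusted p = 0.111).

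The last inhibitor, Ghi.4850.1.A1_x_at, was dim and had values only at 24 and 48 h. Control leaves at 24 h read 20, 4.88 and 5.20 and CBW leaves 90.06, 66.86 and 82.60. At 48 h the control leaves read 10.39, 4.02 and 2.39 and the CBW leaves 128.42, 62.70 and 81.80. All but the highest of these values lay below the 20th percentile of their array, which was 106 to 121 over the arrays. The log2 difference at 24 h was 3.31 (standard error 0.599, adjusted p = 0.000888). All 6 intensities at 24 h lay below that percentile, so with a floor there no value of the probe set was left, and the call rests on intensities in the dim range. With log2(intensity + 16) the 24 h difference was 1.92 (adjusted p = 0.000108), and without control 24 h replicate 1 it was 3.97 (adjusted p = 0.000177).

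Both chitinases were higher in CBW leaves at 6, 12 and 24 h, and among these times the difference was largest at 6 h for the EP3-3 chitinase and at 12 h for the class I chitinase. The EP3-3 chitinase Ghi.2559.1.S1_s_at had the largest 6 h difference of the members. Its intensities at 6 h were 73.34, 104.39 and 95.08 in control leaves and 3211.54, 4390.44 and 6141.37 in CBW leaves, a 49.2-fold difference. These control intensities all lay below the 20th percentile of their array, and over the alternatives the log2 difference at 6 h was 5.28 to 5.85. At 12 h the intensities were 195.00, 102.78 and 107.28 against 2035.56, 1165.32 and 2383.13. At 24 h they were 213.70, 171.35 and 152.20 against 1548.59, 1685.48 and 1518.28, and at 48 h 126.11, 60.05 and 121.07 against 2375.84, 1657.31 and 2089.82. The 6 h CBW arrays were above all CBW arrays of the later times, which overlapped among themselves. The log2 difference was 5.62 at 6 h (standard error 0.317, adjusted p = 1.7e-10), 3.79 at 12 h (adjusted p = 4.05e-08) and 3.16 at 24 h (adjusted p = 3.1e-07), and 4.38 at 48 h without a test. In control leaves its level was 0.98 higher on the log2 scale at 24 h than at 6 h (adjusted p = 0.0334). That call was lost in 5 of 31 alternatives: with the floor (0.64, adjusted p = 0.0829) and without control 6 h replicate 1 (0.83, adjusted p = 0.1), control 6 h replicate 3 (1.02, adjusted p = 0.0638), control 24 h replicate 1 (0.84, adjusted p = 0.128) or control 24 h replicate 2 (1.00, adjusted p = 0.0579).

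The class I chitinase Ghi.6521.1.S1_at, of the group of plant chitinases with a chitin-binding domain, was readily measured in control leaves too. Intensities at 6 h were 2165.19, 1625.83 and 1656.96 in control leaves and 3769.40, 6540.70 and 3532.77 in CBW leaves. At 12 h they were 879.72, 680.27 and 459.45 against 4360.17, 3592.34 and 3965.54. All 12 h control arrays lay below all 6 h control arrays, while the CBW arrays of these times overlapped. At 24 h the intensities were 1395.40, 1336.17 and 640.46 against 6967.12, 4220.52 and 4576.16, and at 48 h 2180.35, 821.15 and 2153.87 against 4648.65, 5408.64 and 4930.90. The CBW arrays of all times lay between 3532.77 and 6967.12. On the log2 scale the leaves differed by 1.30 at 6 h (standard error 0.359, adjusted p = 0.00422), 2.61 at 12 h (adjusted p = 1.21e-05) and 2.27 at 24 h (adjusted p = 4.39e-05), and 1.67 at 48 h without a test. In control leaves the level fell by 1.47 on the log2 scale from 6 to 12 h (standard error 0.359, adjusted p = 0.00275), a call kept in all 31 alternatives run for it.

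**Figure D2:**
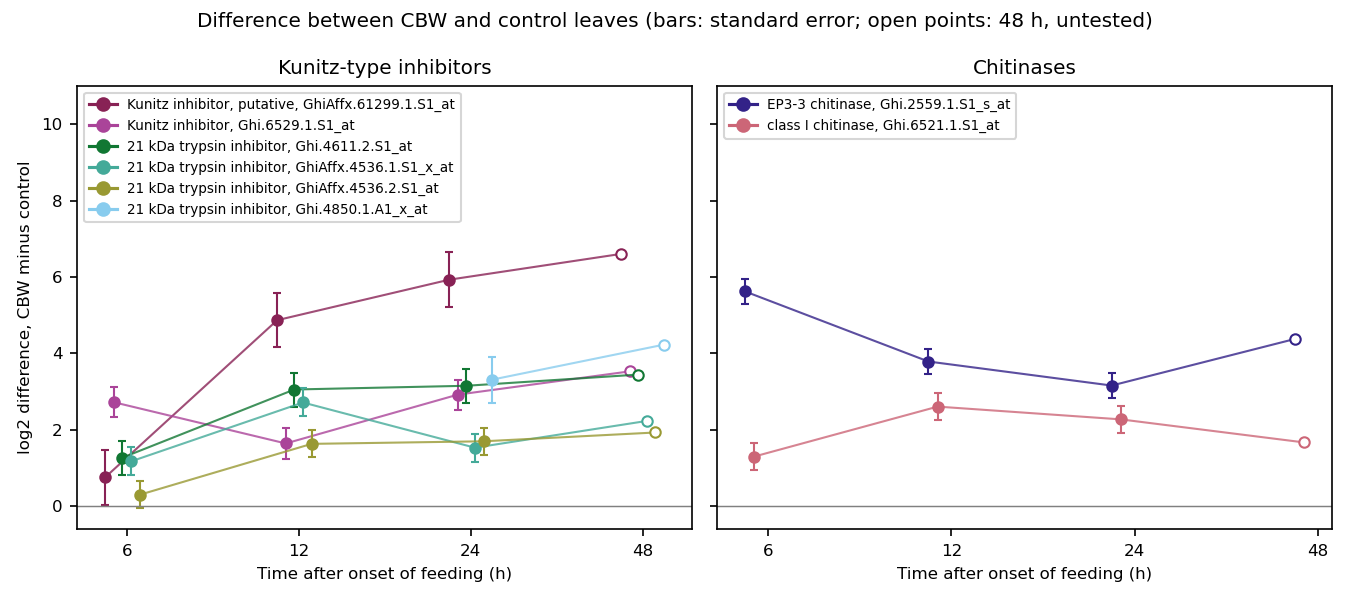
Log2 difference between CBW and control leaves (mean of 3 CBW arrays minus mean of 3 control arrays) against time after feeding began (h), for the 6 Kunitz-type inhibitors (left) and the 2 chitinases (right). Bars are standard errors from limma and open points are the untested 48 h values. The putative Kunitz inhibitor climbs from 0.76 at 6 h to 5.93 at 24 h, and the EP3-3 chitinase drops from 5.62 to 3.16.

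Whether the response to feeding itself differed between times was tested as a difference of the log2 differences. Between 6 and 12 h it differed for 5 of 7 members, 4 with a larger and 1 with a smaller response at 12 h, in a comparison in which 30.5% of all probe sets were called in either direction. The response of the putative Kunitz inhibitor GhiAffx.61299.1.S1_at was 4.11 larger at 12 h (standard error 1.01, adjusted p = 0.00528), and that of the EP3-3 chitinase Ghi.2559.1.S1_s_at changed by -1.83 (standard error 0.448, adjusted p = 0.00511). Both calls held in all 31 alternatives run. A change of response includes any change in control leaves as well as in CBW leaves. From 6 to 12 h the control level changed by -1.25 (adjusted p = 0.169) for the inhibitor and by 0.52 (adjusted p = 0.198) for the chitinase. The responses of the 21 kDa inhibitors were larger at 12 h by 1.78 for Ghi.4611.2.S1_at (adjusted p = 0.0389), 1.54 for GhiAffx.4536.1.S1_x_at (adjusted p = 0.0312) and 1.33 for GhiAffx.4536.2.S1_at (adjusted p = 0.0496). These calls were lost in 9, 6 and 24 of 31 alternatives, for the last of them with adjusted p between 0.0504 and 0.141, the highest without CBW 6 h replicate 3 (1.01). For Ghi.6529.1.S1_at the change was -1.08 (95% interval -2.25 to 0.09, adjusted p = 0.15) and for the class I chitinase Ghi.6521.1.S1_at it was 1.31 (95% interval 0.24 to 2.37, adjusted p = 0.0583), and neither was called.

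Between 12 and 24 h no member's response was called different by limma, against 11.5% of all probe sets. At an unadjusted p under 0.05 there were 2 members, Ghi.6529.1.S1_at (1.28) and GhiAffx.4536.1.S1_x_at (-1.18), and without control 12 h replicate 3 the latter was called (-1.55, adjusted p = 0.0482). Between 6 and 24 h 3 of 7 members were called, against 17.9% of all probe sets: GhiAffx.61299.1.S1_at (5.17, adjusted p = 0.00293), Ghi.2559.1.S1_s_at (-2.46, adjusted p = 0.00183) and Ghi.4611.2.S1_at (1.88, adjusted p = 0.0453). The first 2 calls held in all 31 alternatives, and the third was lost in 18 of 31 (1.49, adjusted p = 0.12 without CBW 6 h replicate 3). For GhiAffx.4536.2.S1_at the change was 1.40 (adjusted p = 0.0573), and without CBW 6 h replicate 1 it was 2.00 (adjusted p = 0.000737).

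**Figure D3:**
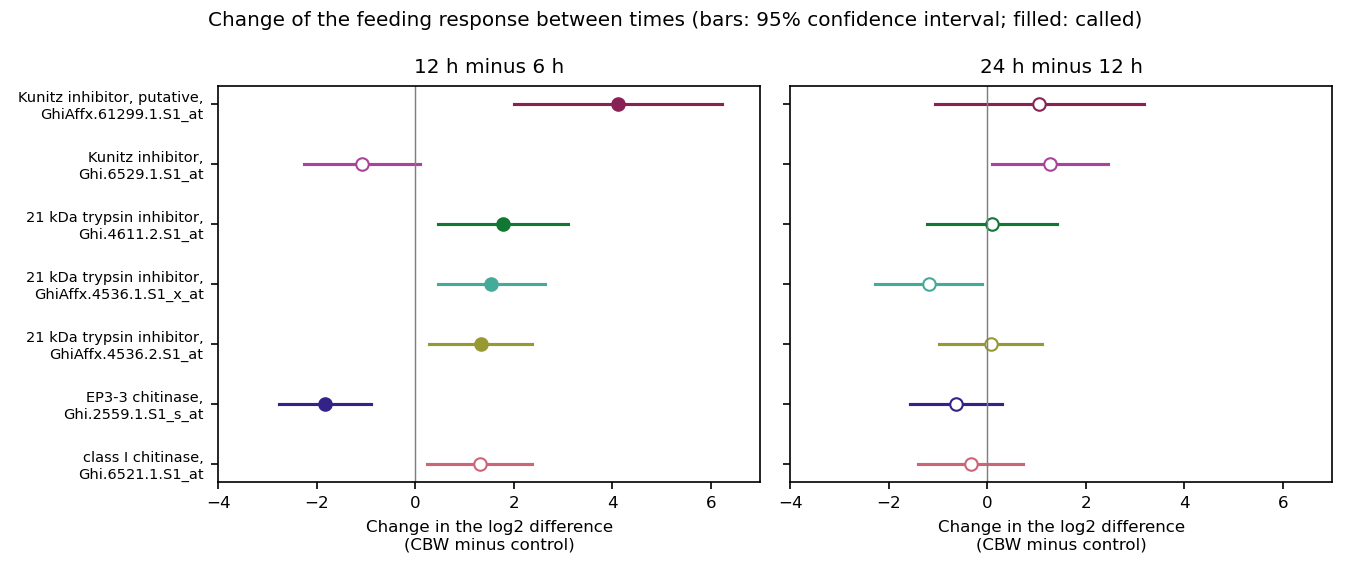
Change of the log2 difference (CBW minus control) from 6 to 12 h (left) and from 12 to 24 h (right) for the 7 members with values at these times. Points are estimates, filled where the adjusted p was 0.05 or less, and bars are 95% confidence intervals. The EP3-3 chitinase (-1.83) is the only member called with a smaller response at 12 h than at 6 h.

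Undamaged leaves were compared between times in the same fit. Between 6 and 12 h 2 of 7 members were called, both lower at 12 h (Ghi.6521.1.S1_at and GhiAffx.4536.1.S1_x_at), against 43.1% of all probe sets in either direction. Between 12 and 24 h 1 of 7 was called (GhiAffx.4536.1.S1_x_at, higher), against 38.6%. Between 6 and 24 h 2 of 7 were called, GhiAffx.61299.1.S1_at lower and Ghi.2559.1.S1_s_at higher, against 22.1%. With so few members, which are not all independent, these shares are not read as different from the background.

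Single arrays, control and CBW, held high or low levels of many members at once. Control 24 h replicate 1 was the highest of its 3 arrays for 8 of 8 members, as for 25.3% of all probe sets, and control 24 h replicate 3 was the lowest for 6 of 8, as for 33.9%. Control 48 h replicate 1 was the highest for 7 of 8 members (33.1% of all probe sets) and control 48 h replicate 2 the lowest for 7 of 8 (47.8%). The median deviation from the group mean on control 48 h replicate 2 was -0.81 on the log2 scale over the members and -0.03 over all probe sets. On control 24 h replicate 3 it was -0.67 over the members. Control 12 h replicate 2 was the lowest for 5 of 7 members (23.6% of all probe sets; median deviation -0.33). Among the CBW arrays, 24 h replicate 2 was the lowest for 6 of 8 members (33% of all probe sets; median deviation -0.21) and 6 h replicate 3 for 5 of 7 (34.8%; median deviation -0.39). The median 48 h difference of the members was 3.49, and 3.00 without control 48 h replicate 2. Members that share a gene or a family are not independent here, and the part of these arrays in the results was not tested beyond leaving each out.

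**Figure D4:**
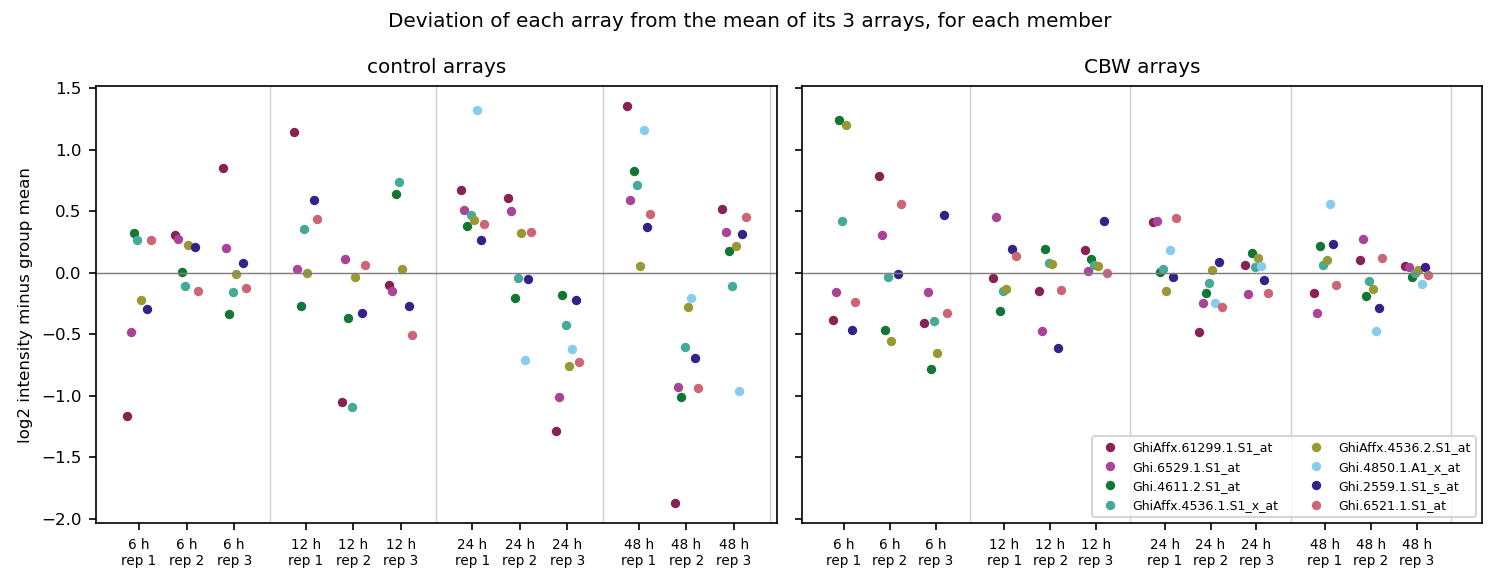
Log2 intensity of each member on each array minus the mean of the 3 arrays of its group, for control arrays (left) and CBW arrays (right), with 1 colour per member. On control 48 h replicate 2 the members lie low together (median -0.81), and on CBW 6 h replicate 1 Ghi.4611.2.S1_at and GhiAffx.4536.2.S1_at lie above 1.

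At 48 h, the time that chose the members, the log2 differences ran from 1.67 for the class I chitinase to 6.60 for the putative Kunitz inhibitor, with a median of 3.49 against 0.003 over all probe sets with values. The lower end of the copied list lay at 1.34 (GhiAffx.10920.2.S1_at, its last row), so that Ghi.6521.1.S1_at (1.67) and GhiAffx.4536.2.S1_at (1.93) were the members nearest to it.

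Partners of chitinases and inhibitors were looked for by name in the same list, which was chosen on these arrays, so their direction at 48 h is fixed by the choice. No other Kunitz-type inhibitor, chitinase or protease inhibitor was named there, where all rows named Kunitz, trypsin or chitinase were already members. This says nothing of other genes of these families on the array. Of beta-1,3-glucanases, which cut the other main polymer of fungal walls, and of thaumatin-like proteins, which include the osmotins, 3 probe sets were named. All 3 were higher in CBW leaves after 6 h and after 12 h, as were the 2 with values after 24 h. Over all probe sets tested, which were not chosen at 48 h, 26.1%, 19.9% and 20% were called higher at these times. The pathogenesis-related thaumatin superfamily protein Ghi.10312.1.S1_at rose by 4.20, 5.57 and 4.19 on the log2 scale at 6, 12 and 24 h (standard error 0.387, adjusted p = 5.22e-08, 4.64e-09 and 1.24e-07). Osmotin-like protein I (Ghi.10646.1.S1_s_at) rose by 1.59 (adjusted p = 0.0193), 2.41 (adjusted p = 0.0018) and 3.12 (adjusted p = 0.000157). The glucan endo-1,3-beta-glucosidase 11 Gra.2907.1.A1_at rose by 0.87 at 6 h (adjusted p = 0.0012) and 1.75 at 12 h (adjusted p = 4.71e-06), at intensities no higher than 95.54. In control leaves 2 of the 3 partners were called lower at 12 h than at 6 h, the thaumatin superfamily protein (-1.56, adjusted p = 0.00311) and the glucosidase (-0.56, adjusted p = 0.0304), in the comparison in which 43.1% of all probe sets were called.

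Likeness of pattern over the 24 arrays was measured as Pearson's r of log2 intensity with 915 named probe sets of the list, as a description: all of them were selected on the same 48 h contrast and share the arrays. Nearest to the putative Kunitz inhibitor GhiAffx.61299.1.S1_at were secretory laccase, putative isoform 1 (r = 0.972), an oxidase of phenolic compounds, glucuronokinase G (r = 0.953) and a receptor-like protein kinase-related protein (r = 0.946). Nearest to the EP3-3 chitinase Ghi.2559.1.S1_s_at were an integrase-type DNA-binding superfamily protein (r = 0.981), a ubiquitin carboxyl-terminal hydrolase (r = 0.978) and Myb domain protein 2 (r = 0.977), a transcription factor. Nearest to the class I chitinase Ghi.6521.1.S1_at were osmotin-like protein I (r = 0.955), an apoplastic anionic gaiacol peroxidase (r = 0.948) and an orthologue of sugar beet HS1 PRO-1 2 (r = 0.943). Among the members themselves r ran from 0.584, between the EP3-3 chitinase and GhiAffx.4536.2.S1_at, to 0.931, between Ghi.4611.2.S1_at and GhiAffx.4536.2.S1_at.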

How the data were processed

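RNA of whole cotton leaves was hybridised by the authors to Affymetrix Cotton GeneChip arrays, 1 array per sample. The authors deposited MAS5 signal intensities on a linear scale, as named in the submitters' processing notes; their scaling target and the rule by which a probe set has values at a time are not given in the sources used here. No probe set had values on only some of the 6 arrays of a time. Intensities were taken to log2 and a model of the means of the 8 treatment and time groups was fitted to all 24 arrays with limma 3.58.1 in R 4.3.3. The p-values were adjusted by Benjamini-Hochberg over all probe sets tested in a comparison, with a call at an adjusted p of 0.05 or less. The spread estimate pools all times, 48 h included; fitting each time alone was an alternative. With 3 arrays a group, an exact permutation test of 1 probe set could not go below p = 0.1, and the number of arrays limits the precision. The script was tested on simulated data.

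Members were selected by protein name in the copied list. Members and lists were chosen with earlier results of these data known. All members are described; of each related list up to 4 probe sets were to be named, by the largest mean difference over 6, 12 and 24 h, among those called alike at 2 or more times; and for 3 members the 3 probe sets with the highest correlation. The gene table given for the array held none of the members, so names and Gorai genes are those of the study's list. Sequences and genome positions of the members were not analysed here. Alternatives were quantile normalization, centring arrays on their median, log2(intensity + 16), a floor or a filter at the 20th percentile, a replicate block, each time fitted alone, and each array left out.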

Additional observations from a re-analysis of the deposited data

Results flagged for a closer look

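Differences of the feeding response between times that passed the test are listed here as values. Each includes any change in control leaves as well as in CBW leaves. The response of the putative Kunitz inhibitor GhiAffx.61299.1.S1_at was larger by 4.11 at 12 h and by 5.17 at 24 h than at 6 h, and that of the EP3-3 chitinase Ghi.2559.1.S1_s_at changed by -1.83 and -2.46. The response of the 21 kDa trypsin inhibitor Ghi.4611.2.S1_at was larger by 1.78 at 12 h and by 1.88 at 24 h than at 6 h. Those of GhiAffx.4536.1.S1_x_at and GhiAffx.4536.2.S1_at were larger by 1.54 and 1.33 at 12 h than at 6 h. The last 3 probe sets are all for 21 kDa trypsin inhibitors, and Ghi.4611.2.S1_at and GhiAffx.4536.1.S1_x_at map to 1 gene. Without CBW 6 h replicate 1, the array on which Ghi.4611.2.S1_at and GhiAffx.4536.2.S1_at were far above replicates 2 and 3, their responses were larger at 12 h than at 6 h by 2.40 (adjusted p = 0.00237) and 1.94 (adjusted p = 0.000393). Ghi.4611.2.S1_at lost its 12 h call without any 1 of control 6 h replicate 1 (1.62, adjusted p = 0.0789) or 2 (1.78, adjusted p = 0.0599), CBW 6 h replicate 2 (1.55, adjusted p = 0.0987) or 3 (1.39, adjusted p = 0.112), control 12 h replicate 1 (1.65, adjusted p = 0.0808) or 2 (1.60, adjusted p = 0.0826), CBW 12 h replicate 2 (1.69, adjusted p = 0.0827) or 3 (1.73, adjusted p = 0.0703), and with quantile normalization (1.63, adjusted p = 0.0572). GhiAffx.4536.1.S1_x_at lost its 12 h call without control 6 h replicate 1 (1.41, adjusted p = 0.0646), CBW 6 h replicate 2 (1.52, adjusted p = 0.058) or 3 (1.35, adjusted p = 0.0795), control 12 h replicate 2 (1.00, adjusted p = 0.0752), and CBW 12 h replicate 2 (1.501, adjusted p = 0.0631) or 3 (1.51, adjusted p = 0.0569). The response of the class I chitinase Ghi.6521.1.S1_at was called larger at 12 h than at 6 h without CBW 6 h replicate 2 (1.59, adjusted p = 0.0329), control 12 h replicate 1 (1.52, adjusted p = 0.0425), control 24 h replicate 3 (1.31, adjusted p = 0.0394) or control 48 h replicate 2 (1.31, adjusted p = 0.0236). Its control level was called higher at 24 h than at 12 h without control 24 h replicate 3 (1.07, adjusted p = 0.0314). The response of GhiAffx.4536.2.S1_at was called larger at 24 h than at 6 h with quantile normalization (1.45, adjusted p = 0.0432) and without control 24 h replicate 2 (1.56, adjusted p = 0.0462).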

How the results depend on the processing

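Over the alternatives, 4 to 5 of 7 members were called higher in CBW leaves at 6 h, 7 of 7 at 12 h and 7 to 8 of 8 at 24 h, and 2 to 3 of the 3 partner probe sets at 6 h and at 12 h. Leaving out 1 array at a time gave 1 to 2 members called between 12 and 6 h in control leaves, 0 to 2 between 24 and 12 h and 0 to 2 between 24 and 6 h. It gave 2 to 6 members whose response differed between 12 and 6 h, 0 to 1 between 24 and 12 h and 2 to 4 between 24 and 6 h, and a median 48 h difference of 3.00 to 3.84. The control count between 12 and 6 h was 1 with arrays centred on their median and 1 with the floor, and that between 24 and 6 h was 1 with the floor. For Ghi.4850.1.A1_x_at the floor replaced all 6 intensities at 24 h, so that its value there (-0.13, adjusted p = 0.0524) is only the difference between the arrays' percentiles and says nothing of its direction. At 48 h, where the floor replaced 5 of 6, it was 0.04, and 2.28 with log2(intensity + 16) or 3.49 with quantile normalization. Same-numbered control and CBW arrays deviated together (correlation over 0.1) in 6 of 12 pairs. By time, the correlations were 0.191 to 0.518 at 12 h, 0.099 to 0.478 at 24 h, -0.187 to 0.218 at 6 h and -0.064 to -0.012 at 48 h. The pairs did not all pass 0.1, so the arrays were not treated as paired. With the replicate block 4 members differed in response between 12 and 6 h, since GhiAffx.4536.2.S1_at missed the threshold (1.33, adjusted p = 0.0782), and no other call on a member changed. Lists of other Kunitz-type inhibitors, chitinases and protease inhibitors held no probe set and gave no value, and differences between times cannot be had with each time fitted alone. Intensities near background limit Ghi.4850.1.A1_x_at and the glucosidase.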
